A study of Mus musculus with 30 samples.

Results

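Endothelial cells line the blood vessels, the lymphatics and the inner surface of the heart, and 34 genes known to mark them were followed here in mouse heart RNA. The genes were listed by name from their known expression in endothelium, not by any measured value, but with earlier results of these data known. All 34 were found among the 13575 genes of the deposited table. They were compared between 3 control hearts (RevFloxed_Control) and 3 CM-RevDKO hearts, a cardiomyocyte knockout of both REV-ERB receptors, all from mice aged 2 months and collected at ZT10, 10 hours after lights on. Both groups carry floxed Rev-erba and Rev-erbb alleles, and the ChIP labels of the series describe Cre driven by the alpha myosin heavy chain promoter, present in one group and absent in the other. That promoter is active in cardiomyocytes, so endothelial cells keep both receptors by design. Cre was present in CM-RevDKO only, so its own effect and that of receptor loss cannot be told apart. The atria were trimmed, and total RNA of the remaining heart was sequenced. The labels do not state the sex of these mice or say that each replicate was its own animal. The p-values therefore reflect the spread among these libraries, which may be technical.

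REV-ERB alpha and REV-ERB beta are nuclear receptors that repress transcription as part of the circadian clock. In the heart, each cardiomyocyte lies next to capillaries, whose endothelium delivers oxygen, fatty acids and glucose and releases nitric oxide and growth signals. Endothelial identity depends on receptors for the vascular endothelial growth factors (VEGF) and the angiopoietins, on junction proteins and on transcription factors of the ETS and SOX families. In whole tissue, fewer cells of a type and less RNA per cell cannot be told apart, and a level is the sum over all cells of the piece.

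The deposited values were read as FPKM (fragments scaled to transcript length and to the mapped fragments of the library), a unit that allows levels of different genes to be compared. Sequencing depth is unknown. The labelled tissue was borne out by its cardiomyocyte transcripts Myh6, the alpha myosin heavy chain, and Tnnt2, cardiac troponin T. Myh6 stood at 4285 to 4549 FPKM in controls and 2983 to 3815 FPKM in CM-RevDKO. Tnnt2 stood at 4769 to 5095 FPKM in controls and 5969 to 6535 FPKM in CM-RevDKO. The groups thus did not overlap for either gene, in opposite directions, but neither passed the test described below (adjusted p = 0.177 and 0.0744 by limma). Of the targeted genes, Nr1d1 (REV-ERB alpha) stood at 23.9, 22.6 and 15.0 FPKM in controls and at 55.6, 47.4 and 47.9 FPKM in the libraries labelled CM-RevDKO, higher against the label (adjusted p = 0.0124). Nr1d2 (REV-ERB beta) stood at 40.3, 30.6 and 36.3 FPKM and at 28.8, 26.6 and 26.7 FPKM (adjusted p = 0.175). A value for the whole gene does not isolate deleted exons, so neither checks the labels. CM-RevDKO replicates 1 and 2 stood apart in some abundant transcripts, such as mt-Atp8, which read 18989 and 19303 FPKM in them and 8032 to 9769 FPKM elsewhere. For that reason the counts below are also given without some libraries.

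None of the 34 endothelial genes passed the test between CM-RevDKO and control hearts. The test was limma on log2(FPKM + 1) with Benjamini-Hochberg adjustment over the 13256 genes tested, at a threshold of 0.05, and it called 332 genes in all (2.50% of those tested). The smallest adjusted p among the 34 was 0.230, that of Plvap, and the largest was 0.965. At an unadjusted p under 0.05 there were 2 of the 34, Plvap and Tcf15, where 16.6% of all genes tested reached that level. The values of the groups overlapped for 33 of the 34 genes, and failed to overlap for Plvap alone, where 23.1% of all genes tested did not overlap. The median log2 difference of the 34 (CM-RevDKO minus control) was 0.05, against 0.02 over all genes tested. The median size of the difference regardless of sign was 0.07 for the 34 and 0.16 over all genes tested. The typical spread within a group was alike for both, with a median SD of 0.17 on the log2 scale.

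The intervals describe how large a difference these libraries could hide. Like the p-values, they reflect the spread among these libraries, which may be technical. The 95% interval of the log2 difference was taken gene by gene and not adjusted for their number. It lay within a 2-fold change of FPKM + 1 in either direction for 32 of the 34 genes and within a 1.5-fold change for 26. For low members the same limits allow a larger fold change of FPKM itself. The intervals that reached past a 1.5-fold change were those of Plvap, Vwf, Tcf15, Emcn, Cldn5, Lyve1, Sox17 and Ramp2. For 21 of the 34 the CM-RevDKO mean lay within 10% of the control mean. The number of genes with a positive difference was 22 as deposited but 11 when the libraries were scaled without the mitochondrially encoded genes, so the signs of the small differences carry no direction for the list. No member passed the test without control replicate 2 and CM-RevDKO replicate 1 together, or with CM-RevDKO replicate 3 alone against the controls, both chosen after seeing the data, when the whole-table counts were 105 and 21. In the latter fit the lone library is assumed to vary as the controls do, and with fewer libraries a count of 0 adds no support.

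**Figure D1:**
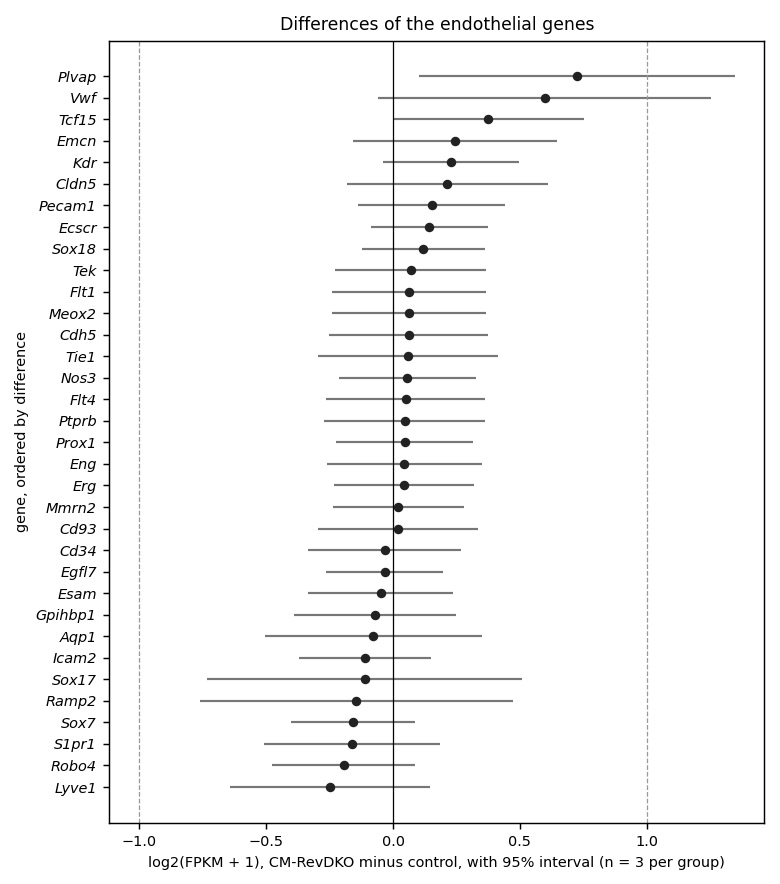
Difference of each of the 34 endothelial genes between CM-RevDKO and control hearts on the log2(FPKM + 1) scale, from 3 libraries per group. Points are the differences and lines their 95% intervals. Dashed lines mark a 2-fold change of FPKM + 1 in either direction. The intervals of Plvap and Vwf extend past the upper dashed line, the other 32 lie between the dashed lines, and the signs of the points near 0 depend on the scaling, with 22 of 34 positive as deposited and 11 when scaled without the mitochondrially encoded genes.

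Levels spanned 3.11 to 133 FPKM as means over the 6 libraries, with a median of 17.1 FPKM, and no member was listed at 0 in any library. A mean of at least 10 FPKM was reached by 25 genes. Differences between libraries of one group were as visible as those between groups. CM-RevDKO replicate 1 held the highest value of 16 of the 34 genes and the lowest of none, whereas control replicate 3 held the lowest value of 12 and the highest of none. The median of the 34 genes relative to the control mean was 0.17 on the log2 scale in CM-RevDKO replicate 1 and -0.03 and -0.04 in CM-RevDKO replicates 2 and 3. The controls lay at 0.08, 0.04 and -0.10 in replicates 1, 2 and 3. CM-RevDKO replicate 1 thus lay above the controls while the other CM-RevDKO libraries lay among them. Without it, the median log2 difference of the list was -0.02, and 14 of the 34 differences were positive.

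**Figure D2:**
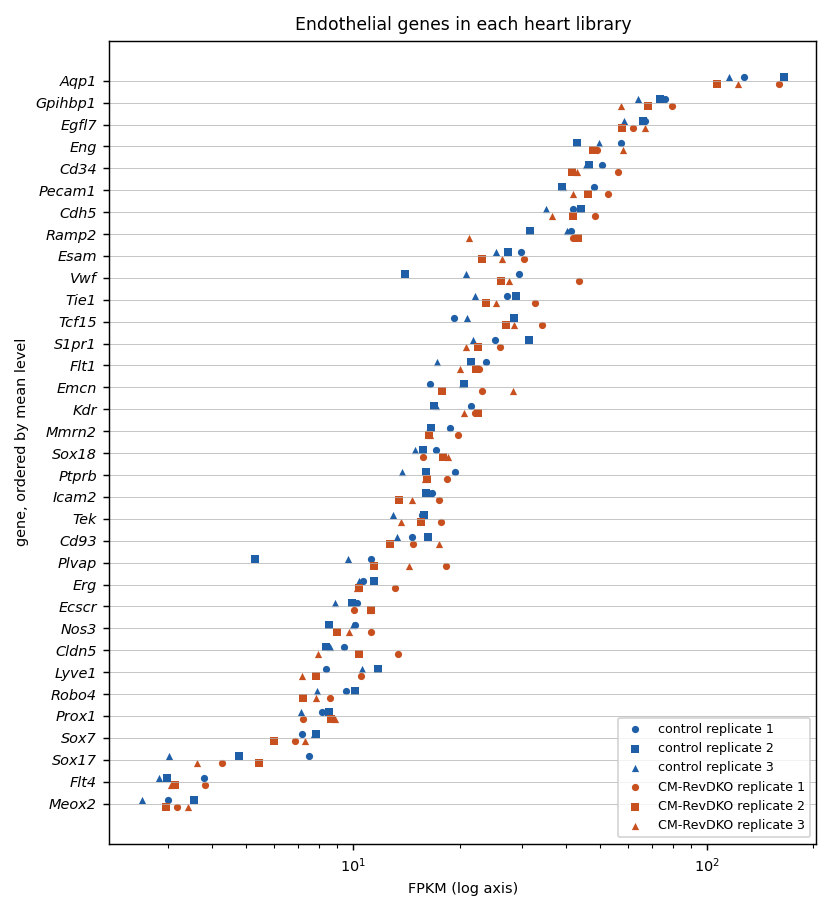
FPKM of the 34 endothelial genes in each of the 6 heart libraries (log axis; blue for control, orange for CM-RevDKO; circle, square and triangle for replicates 1, 2 and 3), ordered by mean level. Blue and orange symbols interleave for all genes but Plvap, whose control values of 5.29 to 11.3 FPKM lie below the CM-RevDKO values of 11.5 to 18.4 FPKM.

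The receptors for VEGF and the angiopoietins and the phosphatase Ptprb, which restrains the angiopoietin receptor, were 6 genes with no call. Kdr, the main VEGF receptor of blood vessels (VEGFR2), stood at 21.5, 16.9 and 17.2 FPKM in the controls and at 22.1, 22.5 and 20.6 FPKM in CM-RevDKO. Control replicate 1 lay within the CM-RevDKO values, and the log2 difference of 0.23 (SE 0.11) did not pass (adjusted p = 0.371). Flt1, the VEGF receptor that also acts as a decoy, had 23.7, 21.6 and 17.3 FPKM in controls and 22.8, 22.3 and 20.1 FPKM in CM-RevDKO. Its control values enclosed all CM-RevDKO values. Tek, the angiopoietin receptor TIE2, stood at 14.9 ± 1.61 and 15.7 ± 2.04 FPKM (SD, n = 3) in control and CM-RevDKO, and its partner Tie1 at 26.1 ± 3.54 and 27.3 ± 4.80 FPKM (SD, n = 3). Ptprb stood at 16.4 ± 2.87 and 16.9 ± 1.37 FPKM (SD, n = 3). Flt4, the VEGF-C receptor of lymphatic vessels, was among the lowest members, at 3.20 ± 0.521 and 3.34 ± 0.406 FPKM (SD, n = 3).

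Junction and adhesion genes gave the same picture, with 8 members and no call. Pecam1 (chromosome 11, 106654213 to 106715281, GRCm38.p6), the platelet and endothelial adhesion molecule CD31, stood at 47.9, 39.0 and 39.2 FPKM in the controls and 52.5, 46.0 and 41.8 FPKM in CM-RevDKO. The log2 difference was 0.15 (SE 0.12, adjusted p = 0.593), and control replicate 1 exceeded CM-RevDKO replicates 2 and 3. It ran from 0.067 without CM-RevDKO replicate 1 to 0.25 without control replicate 1. Cdh5, the cadherin of endothelial junctions, stood at 41.7, 44.1 and 35.1 FPKM and at 48.3, 41.9 and 36.4 FPKM, interleaved throughout. Cd34, a sialomucin that fibroblasts of the heart can also carry, stood at 50.6, 46.5 and 45.7 FPKM in controls and at 56.1, 41.6 and 42.9 FPKM in CM-RevDKO, a log2 difference of -0.03 (SE 0.13, adjusted p = 0.935). CM-RevDKO replicate 1 was the highest of the 6 libraries and the other CM-RevDKO libraries were the lowest. Cldn5, the claudin of endothelial tight junctions, stood at 9.43, 8.41 and 8.61 FPKM in controls, but spread from 13.4 and 10.4 FPKM in CM-RevDKO replicates 1 and 2 to 7.97 FPKM in replicate 3. Emcn, a sialomucin of capillaries and veins, spread as well, from 16.5 to 20.5 FPKM in controls and from 17.8 to 28.3 FPKM in CM-RevDKO, with its highest value in replicate 3. Icam2, Esam and Cd93, further surface proteins of endothelium, had means of 16.4 and 15.2, 27.5 and 26.7, and 14.7 and 15.0 FPKM in control and CM-RevDKO.

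Among signalling members, Eng, the TGF-beta co-receptor endoglin (chromosome 2, 32646595 to 32682669), stood at 57.3, 43.1 and 49.5 FPKM in controls and 48.9, 47.5 and 57.9 FPKM in CM-RevDKO. Its log2 difference of 0.04 (SE 0.13, adjusted p = 0.907) turned to -0.02 with quantile normalization and with scaling without the mitochondrially encoded genes. Nos3, which makes nitric oxide in endothelium, had 10.1, 8.58 and 10.0 FPKM in controls and 11.2, 9.04 and 9.75 FPKM in CM-RevDKO. Eng overlaps the gene Fpgs over 61 bases and Nos3 the long non-coding Gm15587 over 8194 bases, where reads cannot be told apart without strand. S1pr1, the sphingosine 1-phosphate receptor that supports the vascular barrier, had means of 26.2 and 23.1 FPKM, and its highest value, 31.5 FPKM, lay in control replicate 2. Ramp2, the partner of the adrenomedullin receptor, stood at 41.4, 31.6 and 40.2 FPKM in controls and at 42.0, 43.1 and 21.2 FPKM in CM-RevDKO. CM-RevDKO replicate 3 alone was low, and the log2 difference of -0.14 (SE 0.26, adjusted p = 0.839) had an interval from -0.76 to 0.47. Robo4, a guidance receptor that steadies vessels, stood at 9.53, 10.2 and 7.92 FPKM in controls and 8.60, 7.20 and 7.88 FPKM in CM-RevDKO. The CM-RevDKO values lay in the lower part of the range, with a log2 difference of -0.19 (SE 0.12, adjusted p = 0.471). Ecscr, a regulator of endothelial migration, had means of 9.71 and 10.8 FPKM.

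The transport genes held the most abundant members. Aqp1, the water channel of capillary endothelium (chromosome 6, 55336299 to 55348555), stood at 128, 165 and 116 FPKM in controls and at 160, 106 and 122 FPKM in CM-RevDKO. Its highest and second highest values came from different groups, and the log2 difference was -0.08 (SE 0.18, adjusted p = 0.882). Red blood cells also carry this channel. The summed level of the 5 measured red cell genes of 9 listed was 5010 to 9005 FPKM in controls and 8703 to 11003 FPKM in CM-RevDKO, with none listed at 0. It was highest in control replicate 2 among controls and in CM-RevDKO replicate 1 among CM-RevDKO libraries, the same libraries that were highest for Aqp1. The part of red cells in the Aqp1 values was not tested, and the alpha globin copies Hba-a1 and Hba-a2 share reads.

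Gpihbp1 (chromosome 15, 75596630 to 75598213), which carries lipoprotein lipase to the capillary surface, stood at 76.2, 73.8 and 63.9 FPKM in controls and 79.6, 68.0 and 57.2 FPKM in CM-RevDKO. The CM-RevDKO values enclosed those of the controls, with a log2 difference of -0.07 (SE 0.14, adjusted p = 0.848). Among secreted members, Egfl7, a matrix protein laid down by endothelium, stood at 66.8, 65.8 and 58.4 FPKM and at 61.8, 57.7 and 67.1 FPKM, a log2 difference of -0.03 (SE 0.10, adjusted p = 0.907). Mmrn2, an endothelial matrix protein that binds CD93, had means of 17.3 and 17.6 FPKM.

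Plvap and Vwf had the largest differences of the 34, and both varied widely between libraries. Plvap (ENSMUSG00000034845, chromosome 8, 71497753 to 71511806) forms the diaphragms of fenestrae and caveolae and in the heart marks mainly endocardial and venous endothelium. It stood at 11.3, 5.29 and 9.68 FPKM in controls and at 18.4, 11.5 and 14.4 FPKM in CM-RevDKO. The groups did not overlap, but CM-RevDKO replicate 2 and control replicate 1 were nearly equal. The log2 difference was 0.72 (SE 0.27, 95% interval 0.10 to 1.35) with an unadjusted p of 0.0278 and an adjusted p of 0.230 by limma. With single libraries left out it ran from 0.44, without control replicate 2, to 0.92, without control replicate 1, and leaving out both control replicate 2 and CM-RevDKO replicate 1 gave 0.28. Plvap overlaps the gene Gtpbp3 over 1872 bases, so reads there could come from either gene; Gtpbp3 had means of 5.19 and 6.23 FPKM in control and CM-RevDKO.

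Vwf (chromosome 6, 125552948 to 125686679), the clotting factor stored in endothelium and richest in veins and endocardium, stood at 29.4, 14.0 and 20.9 FPKM in controls and at 43.4, 26.2 and 27.6 FPKM in CM-RevDKO. Control replicate 1 exceeded CM-RevDKO replicates 2 and 3, so the groups overlapped. The log2 difference was 0.60 (SE 0.28, 95% interval -0.06 to 1.25, adjusted p = 0.343), and with single libraries left out it ran from 0.34, without control replicate 2, and 0.37, without CM-RevDKO replicate 1, to 0.85, without control replicate 1. Leaving out both control replicate 2 and CM-RevDKO replicate 1 gave 0.12. Vwf was named after its values were seen.

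Endocardial and atrial markers were read in the same libraries. Npr3, the natriuretic peptide clearance receptor found in endocardium, stood at 10.7, 4.20 and 9.54 FPKM in controls and 13.7, 11.2 and 9.64 FPKM in CM-RevDKO. Cytl1, a secreted protein of endocardium, stood at 27.5, 6.20 and 14.3 FPKM in controls and at 21.4, 21.0 and 19.1 FPKM in CM-RevDKO. Neither passed the test (adjusted p = 0.433 and 0.572). Plvap, Vwf, Npr3 and Cytl1 each had their lowest value in control replicate 2, but Cytl1 was highest in control replicate 1. Nfatc1, a transcription factor of the endocardium, went another way, at 4.43, 4.10 and 3.58 FPKM in controls and 4.13, 3.20 and 3.69 FPKM in CM-RevDKO, lowest in CM-RevDKO replicate 2. The summed level of the 5 measured endocardial markers of 6 listed was 55.6, 22.7 and 40.2 FPKM in controls and 54.5, 47.2 and 44.9 FPKM in CM-RevDKO, with none called and none at 0. Control replicate 1 had the highest of these sums and control replicate 2 the lowest. The atrial list of 4 genes summed to 278, 196 and 253 FPKM in controls and to 1474, 755 and 835 FPKM in CM-RevDKO, with Nppa called, so every CM-RevDKO library lay above every control. Nppa was the largest part of each sum, at 164, 134 and 143 FPKM in controls and 813, 589 and 630 FPKM in CM-RevDKO. The sums therefore mainly follow this 1 gene. Myl7, the atrial myosin light chain, was also lowest in control replicate 2, at 27.8 FPKM. It was highest in CM-RevDKO replicate 1, at 288 FPKM, against 67.6 and 87.8 FPKM in CM-RevDKO replicates 2 and 3. The part of endocardium or atrial remnants in the Plvap and Vwf values was not tested.

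**Figure D3:**
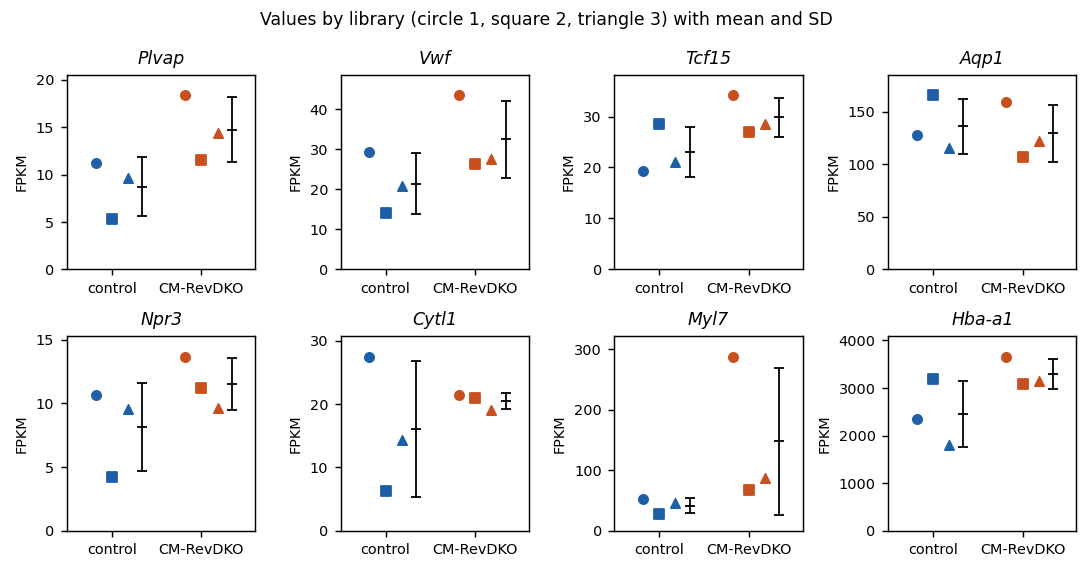
FPKM by library for the members Plvap, Vwf, Tcf15 and Aqp1 and for the endocardial genes Npr3 and Cytl1, the atrial gene Myl7 and the alpha globin Hba-a1; symbols are replicates 1 (circle), 2 (square) and 3 (triangle), and bars are the mean and SD of 3 libraries. Control replicate 2 is the lowest library for Plvap, Vwf, Npr3, Cytl1 and Myl7 and the highest control for Tcf15, Aqp1 and Hba-a1.

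The 6 transcription factors of blood vessel endothelium gave no call. Tcf15 (chromosome 2, 152143056 to 152149097), which works with Meox2 in heart capillaries to promote fatty acid transport, stood at 19.3, 28.6 and 21.0 FPKM in controls and at 34.1, 27 and 28.4 FPKM in CM-RevDKO. Control replicate 2 lay among the CM-RevDKO values. The log2 difference was 0.38 (SE 0.16) with an unadjusted p of 0.0499 and an adjusted p of 0.300 by limma. Its partner Meox2 was the lowest member, at 3.01, 3.55 and 2.53 FPKM and 3.18, 2.96 and 3.42 FPKM. Erg, an ETS factor that maintains endothelial identity, stood at 10.9 ± 0.566 and 11.3 ± 1.64 FPKM (SD, n = 3). Of the SOX factors, Sox18 had means of 16 and 17.4 FPKM, Sox7 of 7.60 and 6.72 FPKM and Sox17, an arterial factor, of 5.10 and 4.43 FPKM. Sox17 ran from 3.02 to 7.51 FPKM within the controls alone, a range that enclosed every CM-RevDKO value.

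The lymphatic markers are also found in other heart cells. Lyve1, the hyaluronan receptor of lymphatic endothelium and of resident macrophages, stood at 8.39, 11.8 and 10.6 FPKM in controls and at 10.5, 7.84 and 7.16 FPKM in CM-RevDKO (adjusted p = 0.511). The summed macrophage markers, 9 of 9 measured and none at 0, ran from 154 to 174 FPKM in controls and from 139 to 241 FPKM in CM-RevDKO, with the highest value in CM-RevDKO replicate 1. The part of macrophages in the Lyve1 values was not tested. Prox1, the lymphatic master regulator that cardiomyocytes also express, stood at 7.96 ± 0.729 and 8.26 ± 0.889 FPKM (SD, n = 3). Of other lymphatic markers, Mmrn1 had means of 2.29 and 3.07 FPKM (adjusted p = 0.331), and Ccl21a was listed at 0 in 1 control and 2 CM-RevDKO libraries.

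The pathways around these genes were examined through 7 lists, and 1 of their 77 measured genes passed the test, where 2.50% of all genes tested did. Of 8 measured VEGF and angiopoietin ligands and co-receptors none passed (median log2 difference 0.01); Vegfb stood at 159 and 142 FPKM and Vegfa, the main ligand of Kdr, at 60.0 and 61.9 FPKM in control and CM-RevDKO. Of 12 Notch pathway genes none passed (median 0.07), with the target Hes1 at 7.92 and 10.2 FPKM and the ligand Jag2 at 8.05 and 9.39 FPKM. At an unadjusted p under 0.05 by limma there were 3 of the 12, where 16.6% of all genes tested reached that level. Hes1 was higher, and Rbpj (5.87 and 4.60 FPKM) and Dll1 (2.52 and 1.65 FPKM) were lower. The groups did not overlap for 2, Rbpj and Lfng (3.66 and 4.46 FPKM), where 23.1% of all genes tested did not. Rbpj, Dll1 and Lfng were named after their values were seen. Of 13 genes of BMP, ALK1 and endoglin signalling none passed (median 0.10), with the target genes Id3 at 33.4 and 38.6 FPKM and Id1 at 28.1 and 31.0 FPKM. Of 9 genes of sphingosine 1-phosphate and adrenomedullin signalling none passed (median 0.04), and the adrenomedullin receptor Calcrl stood at 8.06 and 8.38 FPKM and Ramp1 at 7.01 and 6.16 FPKM.

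Of 11 genes of nitric oxide signalling and caveolae, the flask-shaped pits of the endothelial membrane, none passed (median 0.05), and the caveolar coat genes Ptrf and Sdpr, the most abundant, stood at 79.8 and 85.1 FPKM and at 52.2 and 52.1 FPKM. The groups did not overlap for 4 of the 11 genes, Prkg1, Ddah1, Cav2 and Hsp90aa1, where 23.1% of all genes tested did not. Cav2, a caveolin, had means of 26.1 and 18.7 FPKM (adjusted p = 0.164) and Ddah1, which degrades an inhibitor of nitric oxide synthase, of 1.34 and 2.19 FPKM (adjusted p = 0.117). Prkg1, the cyclic GMP-dependent kinase downstream of nitric oxide, had means of 2.15 and 5.18 FPKM with no overlap (adjusted p = 0.0703). It passed without CM-RevDKO replicate 3 (adjusted p = 0.0287) but not without any other single library (adjusted p of 0.130 to 0.198), and like Cav2, Ddah1 and Hsp90aa1 it was named after its values were seen. Of 15 further endothelial transcription factors none passed (median 0.02). Epas1, the hypoxia-inducible factor HIF-2 alpha, was the most abundant, at 66.9, 68.8 and 59.8 FPKM in controls and 52.0, 50.3 and 49.5 FPKM in CM-RevDKO (adjusted p = 0.0980 by limma). A level of the whole piece does not show which cells hold the Epas1 RNA. The groups did not overlap for 2 of the 15, Epas1 and Ets2 (22.4 and 18.4 FPKM), where 23.1% of all genes tested did not. Ets2 was named after its values were seen. Klf2, a factor induced by blood flow, stood at 27.5 and 24.9 FPKM.

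Of 9 capillary lipid handling genes 1 passed as lower and none as higher (median 0.04), where 2.50% of all genes tested passed in either direction. The groups did not overlap for 4 of the 9, where 23.1% of all genes tested did not. Cd36 and Lmf1 (means of 10.2 and 8.87 FPKM) were lower, and Slc27a3 (0.379 and 0.917 FPKM) and Slc27a4 (4.79 and 5.31 FPKM) were higher. The control mean of Slc27a3 lay below the mean of 0.5 FPKM required for testing. It was tested only through its CM-RevDKO values, so its place among the 4 carries no weight. Lmf1, Slc27a3 and Slc27a4 were named after their values were seen. Cd36, the fatty acid translocase of capillary endothelium and of cardiomyocytes, fell from 417, 357 and 362 FPKM in controls to 256, 287 and 264 FPKM in CM-RevDKO, by 0.49 on the log2 scale (SE 0.10, adjusted p = 0.0471). Leaving out any single library ended that call, with adjusted p-values from 0.0824 to 0.155, as did scaling without the mitochondrially encoded genes (adjusted p = 0.0559) and eBayes without the trend (adjusted p = 0.0899). The log2 difference stayed between -0.56 and -0.42 in those fits. The other genes that act beside Gpihbp1 did not pass: Lpl, the lipase it carries, ran from 639 to 1340 FPKM in controls and from 571 to 816 FPKM in CM-RevDKO, and Fabp4, a fatty acid binding protein of capillaries and adipocytes, had means of 747 and 786 FPKM. In CM-RevDKO, Fabp4 stood at 1020, 759 and 581 FPKM in replicates 1, 2 and 3, and the 5 measured adipocyte markers of 6 listed summed to 83.9, 47.0 and 11.7 FPKM, against 14.5, 10.4 and 9.37 FPKM in controls. None of the 5 passed or was listed at 0, and the part of adipocytes in the Fabp4 values was not tested.

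A further 22 pan-endothelial genes outside the 34, of 23 listed, held no call, where 2.50% of all genes tested passed. At that share, no call among so few genes adds little. Their median log2 difference was 0.02, with 13 positive differences. The most abundant were Ly6c1, at 145 and 141 FPKM in control and CM-RevDKO, and Ly6a, at 88.5 and 88.7 FPKM. The groups did not overlap for 2 of the 22, Gimap4 and Tspan18, where 23.1% of all genes tested did not. Gimap4, a GTPase shared with lymphocytes, had means of 7.19 and 12.2 FPKM (adjusted p = 0.0980 by limma). Tspan18 went the other way, with means of 2.90 and 2.65 FPKM. Both were named after their values were seen. None of 8 arterial markers passed, although all 8 had positive differences (median 0.23), with Gja4 at 7.04 and 8.20 FPKM and Efnb2 at 6.20 and 7.45 FPKM. The groups did not overlap for 3 of the 8, Bmx, Efnb2 and Unc5b, where 23.1% of all genes tested did not. Bmx and Unc5b were named after their values were seen. The 8 summed to 38.1, 34.3 and 29.8 FPKM in controls and 46.7, 39.8 and 35.4 FPKM in CM-RevDKO, so CM-RevDKO replicate 3 lay among the controls. None of 3 venous markers passed, with Ephb4 at 15.8 and 15.4 FPKM. None of 3 genes of activated endothelium passed, with Vcam1 at 10.4, 5.30 and 7.68 FPKM in controls and 12.9, 10.6 and 9.99 FPKM in CM-RevDKO, again lowest in control replicate 2. Ccl2 went the other way, with means of 2.03 and 1.25 FPKM in control and CM-RevDKO. Icam1 had means of 3.72 and 4.10 FPKM, so the list showed no common direction.

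**Figure D4:**
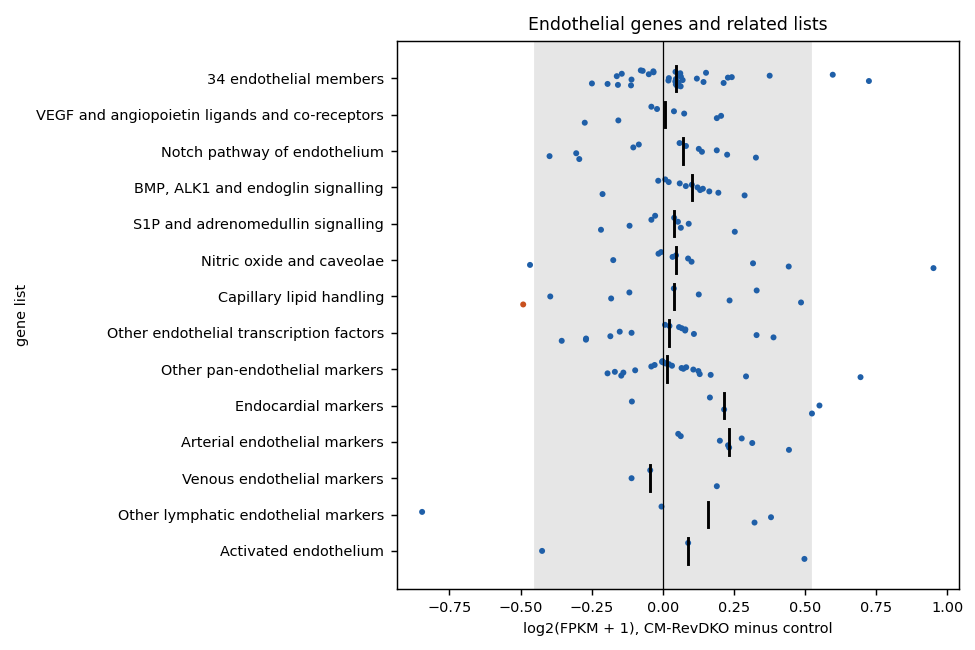
Log2 differences (CM-RevDKO minus control, log2(FPKM + 1)) of the 34 endothelial genes and of related gene lists; each point is a gene, orange where it passed the test, black bars are list medians, and the grey band holds the central part of all genes tested, from percentile 5 (-0.45) to percentile 95 (0.52). The medians of the 34 genes and of the other pan-endothelial markers lie at 0.05 and 0.02, and Cd36 is the one orange point.

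Markers of cardiomyocytes and of neighbouring cell types were measured in the same libraries. Of 10 cardiomyocyte markers none passed, and 5 had positive differences. The groups did not overlap for 6 of the 10, where 23.1% of all genes tested did not. At an unadjusted p under 0.05 by limma there were 5 of the 10, where 16.6% of all genes tested reached that level. None of 9 fibroblast markers passed, and their sums of 427 to 602 FPKM in controls and 445 to 590 FPKM in CM-RevDKO covered the same range. Of 6 pericyte markers 1 fell, where 2.50% of all genes tested passed in either direction: Abcc9, a potassium channel subunit that cardiomyocytes also express, stood at 50.2 ± 1.68 FPKM in controls and 31.1 ± 2.11 FPKM in CM-RevDKO (SD, n = 3), a log2 difference of -0.68 (adjusted p = 0.0113 by limma). That call ended without control replicate 1 (adjusted p = 0.0600) or 2 (adjusted p = 0.0537), with log2 differences of -0.68 and -0.65. The pericyte gene Rgs5 stood at 114 and 109 FPKM. The 4 smooth muscle markers summed to 54.4 to 72.3 FPKM in controls and to 82.4 to 107 FPKM in CM-RevDKO, and none passed.

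For 15 of the 34 genes the RefSeq tables of GRCm38.p6, which is mm10, held 20 promoter windows, each from 250 bases before to 50 bases after a transcription start. They were searched on both strands for AGGTCA, the core hexamer that REV-ERB and ROR receptors bind, and for AGGAAG or CGGAAG, cores bound by ETS factors such as ERG. AGGTCA and AGGAAG share the letters AGG, and matches of the receptor and ETS motifs can overlap. AGGTCA occurred in 4 of the 20 windows (20.0%), where 16.3% of all 32851 windows and 12.4% of the windows of genes tested held it. An ETS core occurred in 10 of the 20 (50%), against 46.5% and 53.2%. Endothelial cells keep both receptors by design, so a match cannot be read against the differences between CM-RevDKO and control. The windows with AGGTCA are shown for their letters only, and capitals mark AGGTCA or its reverse complement. They belong to Egfl7 (chr2:26583615-26583914, plus strand), Emcn (chr3:137340828-137341127, plus strand), Erg (chr16:95459299-95459598, minus strand) and Robo4 (chr9:37401722-37402021, plus strand), and each is read 5′ to 3′ along the gene.
Egfl7: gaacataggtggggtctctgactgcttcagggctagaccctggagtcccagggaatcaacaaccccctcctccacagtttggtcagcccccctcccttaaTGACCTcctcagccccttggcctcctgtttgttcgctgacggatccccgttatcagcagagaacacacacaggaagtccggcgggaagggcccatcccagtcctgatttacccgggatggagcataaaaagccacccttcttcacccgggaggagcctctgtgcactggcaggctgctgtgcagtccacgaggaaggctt
Emcn: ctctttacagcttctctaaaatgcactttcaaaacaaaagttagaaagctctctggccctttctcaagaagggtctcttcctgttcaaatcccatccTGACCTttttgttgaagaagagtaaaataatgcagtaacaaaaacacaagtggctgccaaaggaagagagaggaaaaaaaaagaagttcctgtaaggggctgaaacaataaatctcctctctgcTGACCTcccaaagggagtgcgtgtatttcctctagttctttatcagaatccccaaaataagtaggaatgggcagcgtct
Erg: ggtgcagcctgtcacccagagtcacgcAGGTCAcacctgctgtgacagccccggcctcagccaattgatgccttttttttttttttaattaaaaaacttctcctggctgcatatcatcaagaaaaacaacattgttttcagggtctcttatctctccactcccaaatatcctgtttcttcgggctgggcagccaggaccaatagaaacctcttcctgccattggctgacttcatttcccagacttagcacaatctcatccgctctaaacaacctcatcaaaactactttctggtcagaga
Robo4: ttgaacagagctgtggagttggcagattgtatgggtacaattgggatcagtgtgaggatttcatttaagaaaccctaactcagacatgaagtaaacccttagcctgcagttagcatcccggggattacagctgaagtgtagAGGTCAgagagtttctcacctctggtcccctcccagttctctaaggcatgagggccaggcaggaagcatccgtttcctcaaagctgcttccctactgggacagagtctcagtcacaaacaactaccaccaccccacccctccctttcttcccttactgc

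The Emcn window held the hexamer at 2 positions and the others at 1. As given above, Egfl7, Emcn, Erg and Robo4 did not pass the test, which says nothing about these matches in cells that keep the receptors. A match is a description of letters only, and binding at these windows was not examined here.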

How the data were processed

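The deposited table holds 1 value per gene for 6 RNA libraries, taken as FPKM computed by the authors; HISAT2, StringTie and mm10 are named, without versions, per the submitters' processing notes. The header names no unit, and TPM could not be told apart, with sums of 678722 to 712158 per library. The sources used here do not give annotation or strand setting. All 6 columns were matched to the labels, and the other 24 samples of the series were not analysed here. The 13256 genes whose mean reached 0.5 FPKM were fitted as log2(FPKM + 1) with limma 3.58.1 in R 4.3.3 (eBayes with trend, group only, two-sided, Benjamini-Hochberg over all genes). A pseudocount of 1 understates changes of low genes. The procedure was run on simulated data whose noise was independent between genes and libraries. Deviations shared by many genes of a library, as seen here, were not simulated, so that run does not check the counts reported. No library pair held identical values.

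The 34 genes, the 24 related lists (7 pathway, 17 marker) and the tests were chosen with earlier results of these data known. All 34 are named; full statistics went to those with an unadjusted p under 0.05 and the 6 most abundant, and Vwf, Kdr, Robo4 and Ramp2 were added after their values were seen. From each pathway list the genes past the test were named, or the 2 most abundant. Alternatives were another pseudocount, other filters, 3 other scalings, eBayes without trend, a 1.5-fold threshold, the replicate block, centring on the members and leaving out libraries. RefSeq supplied coordinates for all 34 genes and the promoter sequences.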

Additional observations from a re-analysis of the deposited data

How the results depend on the processing

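The count of 0 members past the test held in every alternative run, and the smallest adjusted p of a member in any of them was 0.0889, for Plvap with the replicate block. The 1.5-fold threshold is stricter than the main test and the runs without some libraries hold fewer of them, so a count of 0 there adds no support. The replicate numbers did not pair the libraries: deviations of same-numbered libraries correlated at -0.04, -0.06 and 0.09 across genes, and 1 of 3 control libraries correlated best with its own number. With the block 115 genes of the whole table passed in place of 332, against a fold change of 1.5 there were 35, and with single libraries left out 120 to 322. Cd36 and Abcc9 did not pass with the block (adjusted p = 0.147 and 0.0552), at the same log2 differences. Of the alternatives chosen after seeing the data, 105 passed when control replicate 2 was left out together with CM-RevDKO replicate 1, and 21 when CM-RevDKO replicate 3 alone was set against the controls; both leave fewer libraries. The 332 were 167 higher and 165 lower as deposited, and 118 and 212 scaled without the mitochondrially encoded genes.

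Small log2 differences turned sign. Eng was -0.02 with quantile normalization (-0.0237), with scaling without the mitochondrially encoded genes (-0.0239) and with control replicate 2 left out together with CM-RevDKO replicate 1 (-0.0224), and -0.0520 when centred on the members; with single libraries left out it ran from -0.0559 to 0.15. With only CM-RevDKO replicate 3, Egfl7 was 0.0763 and Pecam1 -0.0023. With single libraries left out Aqp1 ran from -0.24 to 0.0702, Cd34 from -0.17 to 0.0453 and Egfl7 from -0.0933 to 0.0186. Gpihbp1 ran from -0.19 to 0.0482 and Ramp2 from -0.32 to 0.18 in the same fits. Robo4 kept its sign there, from -0.29 to -0.13. The cause was not tested. Depth is unknown, so no counting limit can be given.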
